A study of Saccharomyces cerevisiae with 6 samples.

Results

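The anaphase-promoting complex and spindle checkpoint genes of Saccharomyces cerevisiae were followed here as a set of 10: the subunit genes CDC26, DOC1, SWM1, APC9 and MND2, the activator gene CDH1, and the checkpoint genes MAD1, MAD2, BUB1 and BUB3. They were chosen by name, with values of both experiments already known, out of 5638 genes with an expression probe set or a deletion strain. All 10 had an expression probe set, and 8 had a deletion strain on the integration arrays. The DOC1 and BUB3 strains were not analysed here.

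Expression had been profiled on 2 arrays of a fun30 deletion mutant and 2 arrays of the wild type BY4741, a haploid laboratory strain, both in log phase in synthetic complete medium. FUN30 encodes an ATP-dependent nucleosome remodeller. In the second experiment a pooled library of homozygous diploid deletion mutants received a linear cassette for replacement of ISU1 or of SOD2 by URA3, or the circular control plasmid pRS416, and was selected on medium without uracil for 2 days at 30°C. Every strain of the library carries DNA barcodes ("tags"), and 1 two-colour array per cassette compared the tags of the cassette-transformed pool with those of the plasmid-transformed pool.

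The anaphase-promoting complex, or cyclosome (APC/C), is a ubiquitin ligase that sends securin and mitotic cyclins to the proteasome, which releases sister chromatids and ends mitosis. Cdc20 activates it at the onset of anaphase and Cdh1 in late mitosis and G1. The spindle checkpoint proteins Mad1, Mad2, Mad3, Bub1 and Bub3 hold Cdc20 in check while kinetochores lack attachment to the spindle. Several APC/C subunits are essential, whereas Cdc26, Doc1, Swm1, Apc9 and Mnd2 are dispensable for growth under ordinary conditions, so homozygous deletion strains of these can be kept in a library.

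The labels were checked on the arrays before the members were read. The FUN30 probe set averaged 3.46 ± 0.13 on the deletion arrays and 9.51 ± 0.16 on the wild-type arrays (log2 signal, SD, n = 2 each), so the deletion lay below the background level of 5.24. MET17, a gene that BY4741 lacks, averaged 12.99 ± 0.08 on the deletion arrays and 5.48 ± 0.01 on the wild-type arrays (log2 signal, SD, n = 2 each). Of the other BY4741 markers, LEU2 and URA3 lay below the background level on every array, HIS3, which is only partly deleted in that strain, did not, the 5 MATa genes had log2 signals from 11.15 to 13.66, and the MATalpha genes STE3 and SAG1 from 7.78 to 9.41. The labels call the mutant isogenic, and its bright MET17 signal goes against that. A single isolate of each genotype is named, so loss of FUN30 and other genetic differences of that isolate cannot be told apart. The number of arrays limits the precision, and the labels do not say whether replicates were separate cultures, so the p-values cover the spread among the 4 arrays alone, which may be technical.

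On the integration arrays, the strains lacking CDC26, SWM1, APC9, CDH1 or MAD1 lay below the median of both arrays, CDC26 farthest. CDH1 was within 1 tag error of the median on the SOD2 array, at −0.19 ± 0.20. The strains lacking MND2, MAD2 or BUB1 lay near the median on both arrays. Values are log2 of the deposited ratio minus the array median, averaged over the tags of a strain. Neither the labels nor the table state which pool was divided by which, so values are given as above or below the median only. Strains lacking the recombination genes RAD54, RAD55 and RAD57, set beside them as marks chosen with their values known, stood far above, at 1.88, 2.32 and 2.21 with the ISU1 cassette and at 2.28, 2.08 and 3.20 with the SOD2 cassette. The FUN30 strain was on the other side, at −1.43 with the ISU1 cassette and −1.20 with the SOD2 cassette. FUN30 and RAD54 were read from 1 tag on each array, and RAD55 from 1 tag on the SOD2 array. The tags of RAD57 lay apart, with ratios of 3.08 and 6.99 on the ISU1 array and 7.03 and 13.57 on the SOD2 array. These integration values were known when the members were chosen, and with 1 array per cassette they are described without a test.

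CDC26 encodes a small subunit that stabilises the complex. Its strain had a ratio of 0.10 at the single tag with a value on the ISU1 array, and ratios of 0.52 and 0.48 at its tags on the SOD2 array. In centred log2 values this was −3.32 (ISU1 array) and −1.09 (SOD2 array), 10.0-fold and 2.12-fold below the medians. The strain stood at percentile 0.0471 of all strains on the ISU1 array and at percentile 1.00 on the SOD2 array. It was the only member past 2-fold in the same direction on both arrays, where 0.638% of the 4235 strains with both values lay past 2-fold below and 1.91% past 2-fold above. The gap between its values on the ISU1 and SOD2 arrays was −2.24 ± 0.35 (error from the tag SD over all strains with both tags). That gap lay at percentile 0.0945 of all strains. The dyes of the 2 pools were exchanged between the arrays, so cassette and dye cannot be told apart in such a gap. The ISU1 value of CDC26 rests on 1 tag, which has no spread of its own.

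SWM1 encodes a subunit first known from spore wall maturation. Its tags had ratios of 0.59 and 0.57 on the ISU1 array and 0.62 and 0.72 on the SOD2 array. All 4 values lay below the medians, and the strain averaged −0.79 and −0.67 (log2) on the ISU1 and SOD2 arrays, at percentiles 3.78 and 4.93. APC9, whose product is a subunit of yeast APC/C, had tag ratios of 0.72 and 0.57 on the ISU1 array and 0.85 and 0.74 on the SOD2 array. Its strain averaged −0.64 and −0.42 (log2), again with every tag below the median.

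MND2 encodes a subunit that restrains the meiotic form of the APC/C. Its strain had tag ratios of 0.83 and 1.25 on the ISU1 array and 1.04 and 1.02 on the SOD2 array, averaging 0.03 and −0.04 (log2). Its ISU1 tags fell on opposite sides of the median, so the strain could not be set apart from the bulk of the library on either array.

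Of the regulators, CDH1 had tag ratios of 0.63 and 0.47 on the ISU1 array, both below the median, and of 0.74 and 1.17 on the SOD2 array, on opposite sides of it. The strain averaged −0.88 with the ISU1 cassette and −0.19 with the SOD2 cassette (log2), at percentiles 2.78 and 30.7. The difference between the arrays was −0.69 ± 0.28, beside −0.12 ± 0.28 for SWM1 and −0.22 ± 0.28 for APC9. These errors come from the tag SD over all strains with both tags, not from the tags of each strain. With 1 array for each cassette these differences were not tested, and cassette and dye cannot be told apart in them.

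MAD1, the kinetochore scaffold that recruits Mad2, had tag ratios of 0.72 and 0.49 on the ISU1 array and 0.65 and 0.96 on the SOD2 array. Its strain averaged −0.75 and −0.42 (log2), with all 4 tag values below the medians. The strain lacking its partner MAD2, the checkpoint protein that binds Cdc20, had tag ratios of 1.04 and 0.92 on the ISU1 array and 1.20 and 1.08 on the SOD2 array. It averaged −0.03 and 0.10 (log2), close to the medians. The strain lacking BUB1, a checkpoint kinase, was read from 1 tag on each array, with ratios of 1.12 and 1.04, or 0.16 and −0.03 (log2) on the ISU1 and SOD2 arrays. MAD3, a further component of the same checkpoint complex and no member of the set, had a strain at −0.10 and 0.14 (log2).

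**Figure D1:**
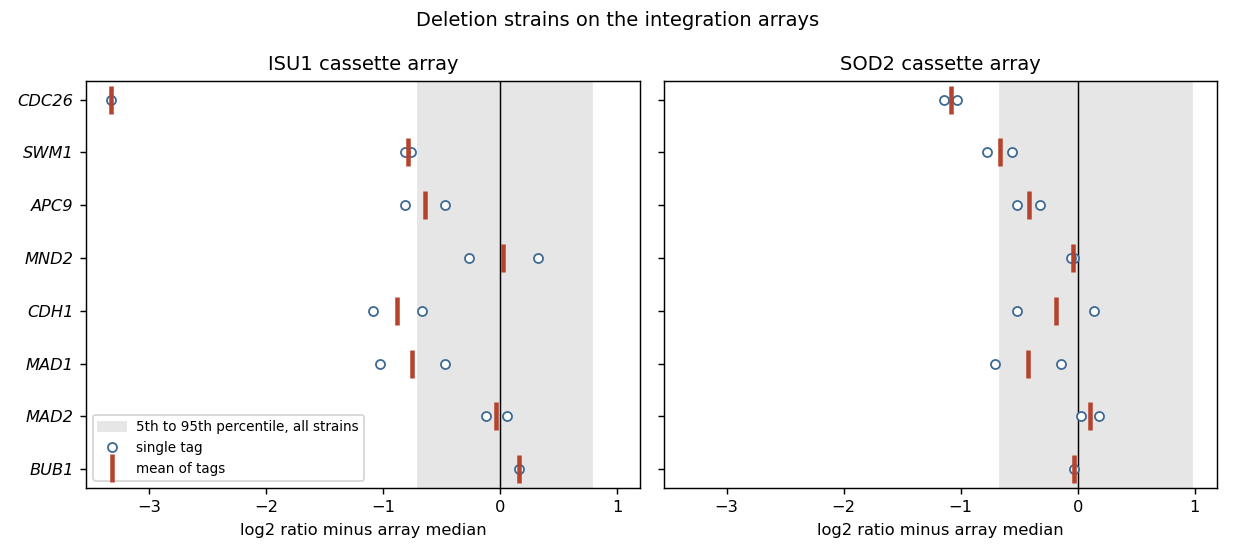
Log2 ratio minus the array median (x axis) of the 8 deletion strains (rows) on the ISU1 and SOD2 cassette arrays. Open circles are single tags, bars the mean of a strain's tags, and grey the range from the 5th to the 95th percentile of all strains. CDC26 stands far to the left at −3.32 (ISU1) and leftmost at −1.09 (SOD2), and MND2, MAD2 and BUB1 sit at the median line.

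Across the 8 strains the median was −0.70 with the ISU1 cassette and −0.30 with the SOD2 cassette, against −0.01 and 0.01 over all 4235 strains with both values. Below the median on both arrays lay 5 of the 8, against 30.4% of all strains, above it on both lay 0 of 8 against 30.2%, and on opposite sides 3 of 8 against 39.2%. The ISU1 value was the lower of the pair in 6 of 8, against 52.4% of all strains. Since the members were chosen with these values known, nothing is read from those counts. In order from the lowest on the ISU1 array the strains were CDC26, CDH1, SWM1, MAD1, APC9, MAD2, MND2 and BUB1. The steps from CDC26 to CDH1 (2.44) and from APC9 to MAD2 (0.61, against 0.57) exceeded 2 tag errors. The other neighbours in that order did not differ by that much. A tag error covers the tags of 1 array only, and these values were known when the members were chosen. The steps therefore describe the order and are no test of it. On the SOD2 array the order was CDC26, SWM1, MAD1, APC9, CDH1, MND2, BUB1 and MAD2, and no step exceeded 2 tag errors.

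**Figure D2:**
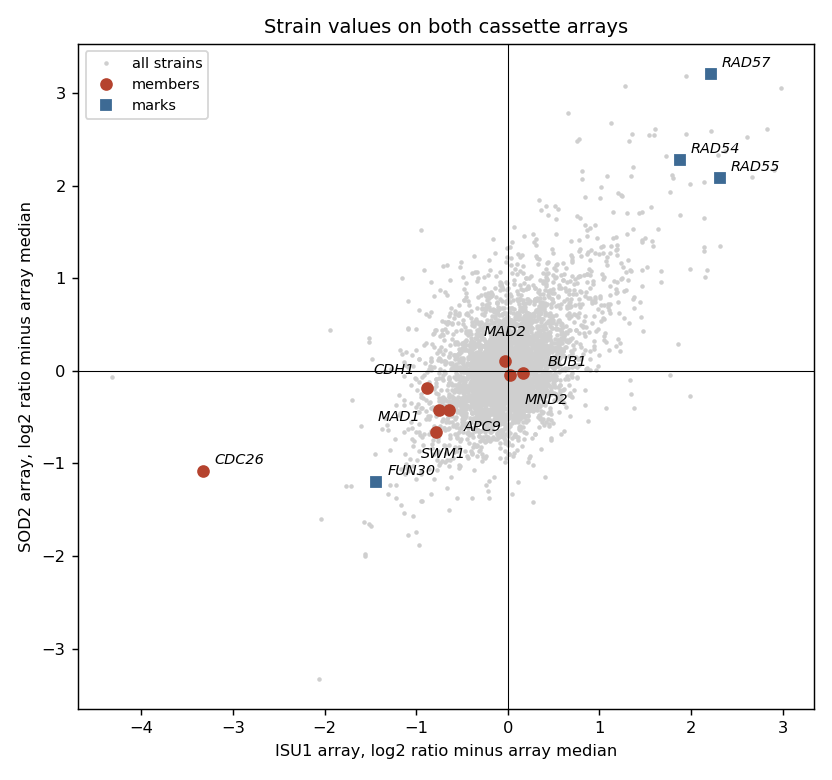
Centred log2 ratio on the ISU1 array (x axis) against the SOD2 array (y axis) for all strains (grey), the 8 members (circles) and the marks FUN30, RAD54, RAD55 and RAD57 (squares). The RAD strains lie high on both axes, CDC26 and FUN30 low on both, and SWM1, APC9, MAD1 and CDH1 on the low side of the ISU1 axis, from −0.88 to −0.64.

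Strains deleted for genes next to a member gave a comparison by position. YAP6, a transcription factor gene beside SWM1, had a strain at −0.62 and −0.43 (log2, ISU1 and SOD2 arrays), on the same side as SWM1. The strains on either side of CDH1, lacking the proteasome chaperone gene RPN14 and the secretory cargo receptor gene ERP6, lay at 0.29 and 0.31 with the ISU1 cassette and at 0.16 and 0.54 with the SOD2 cassette, above the medians where CDH1 lay below. Beside MAD1, the strain lacking MMS2, a ubiquitin-conjugating enzyme variant of post-replication repair, lay at −1.51 and 0.32, and that lacking the nuclease-like gene LCL3 at −0.01 and −0.12 (ISU1 and SOD2 arrays). The strain lacking HGH1, which neighbours BUB1, lay at 0.23 and −0.33, and that lacking INA22, which neighbours MND2, at 0.23 and −0.08. The 5 strains whose pair of values lay nearest to the median pair of the members, by Euclidean distance over the 2 arrays, were those lacking EMC5, ATG15, CHA4, SAS2 and KGD2, at distances of 0.0158 to 0.0416.

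Related cell division genes had 26 strains on both arrays, with medians of −0.02 (ISU1 array) and 0.09 (SOD2 array), and 0 of them passed 2-fold on both. Among 10 strains for APC/C substrates, CLB3, a B-type cyclin gene, lay farthest out, at 1.00 and 0.79 (log2), above both medians. This list had medians of 0.18 and 0.26, with 5 strains above the median on both arrays, 1 below on both and 4 on opposite sides. Among 7 strains for mitotic exit genes, SIC1, the inhibitor of B-type cyclin kinase, lay farthest out in the mean of both arrays, with −0.39 (ISU1 array) and 1.06 (SOD2 array). In the list of APC/C activators, inhibitor and conjugating enzymes, AMA1, the meiosis-specific activator, was farthest out at −0.09 and −0.26, and ACM1, the Cdh1 inhibitor, lay at −0.01 and 0.23. AMA1 was read from 1 tag on the ISU1 array, and its tag errors were 0.28 (ISU1 array) and 0.20 (SOD2 array). Of the other checkpoint genes, the features annotated to SLI15 lay at −0.74 and −1.001. SLI15, a subunit of the Aurora kinase complex, is an essential gene, and whether a strain stood behind those features was not tested.

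In the expression experiment, SWM1 rose in the fun30 deletion and no other member passed the threshold. Differences are log2 signal in the deletion minus the wild type, fitted with limma over 5498 probe sets, and a gene passed at a Benjamini-Hochberg adjusted p under 0.05. Thus 1 of 10 members rose, against 1.36% of all probe sets, and 0 of 10 fell, against 1.29%. At an unadjusted limma p under 0.05 there were 5 of 10, of which 2 were higher and 3 lower, against 22.2% of all probe sets. The 2 genotypes did not overlap, with the deletion higher, in 3 members (28.5% of all probe sets) and, with the deletion lower, in 5 (30.0%). The members' median difference was −0.06, against −0.00299 over all probe sets.

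Among the subunits, SWM1 had log2 signals of 9.93 and 9.74 in the deletion, against 9.18 and 9.18 in the wild type. Both deletion arrays lay above both wild-type arrays, and the difference was 0.65 ± 0.08 (SE, adjusted p = 0.0294, limma), or 1.57-fold. Without fun30 deletion replicate 1 the difference was 0.56, and without fun30 deletion replicate 2 it was 0.75. Without wild type replicate 1 the difference was 0.66, and without wild type replicate 2 it was 0.65. SWM1 did not pass the threshold without wild type replicate 1, a fit that leaves 1 wild-type array, although its difference hardly moved. CDC26 had signals of 8.31 and 8.15 in the deletion, against 8.57 and 8.57 in the wild type, which did not overlap. The difference was −0.34 (95% interval −0.54 to −0.13) with an adjusted p of 0.110 (limma).

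DOC1, the processivity subunit that helps the APC/C hold its substrates, had signals of 6.36 and 6.41 in the deletion, against 6.70 and 6.73 in the wild type. The groups did not overlap, and the difference of −0.33 (95% interval −0.49 to −0.17) had an adjusted p of 0.0778 (limma). MND2 had signals of 9.25 and 9.37 in the deletion, against 9.14 and 9.17 in the wild type, a difference of 0.15 (95% interval −0.03 to 0.34) that did not pass. APC9 had signals of 10.45 and 10.44 in the deletion, against 10.39 and 10.59 in the wild type. Here the groups overlapped, and the difference was −0.04 (95% interval −0.27 to 0.18).

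CDH1 had signals of 10.36 and 10.29 in the deletion, against 10.17 and 10.11 in the wild type. The deletion arrays were the higher ones, by 0.19 (95% interval 0.01 to 0.36), with an adjusted p of 0.203 (limma).

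Of the checkpoint genes, BUB1 had signals of 6.04 and 6.10 in the deletion, against 6.43 and 6.34 in the wild type, a difference of −0.32 (95% interval −0.49 to −0.14, adjusted p = 0.0985, limma). BUB3, which binds Bub1 and Mad3, had signals of 9.68 and 9.65 in the deletion, against 9.87 and 9.79 in the wild type, a difference of −0.17 (95% interval −0.34 to 0.00396). In both genes the deletion arrays lay below the wild-type arrays, and neither passed. MAD2 had signals of 10.79 and 10.74 in the deletion, against 10.83 and 10.84 in the wild type, a difference of −0.07 (95% interval −0.23 to 0.09). MAD1 had signals of 9.81 and 9.89 in the deletion, against 9.82 and 9.74 in the wild type, a difference of 0.07 (95% interval −0.11 to 0.25). MAD1 was the only checkpoint member whose groups overlapped. All 10 members lay above the background level of 5.24 on every array, with BUB1 and DOC1 nearest to it.

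**Figure D3:**
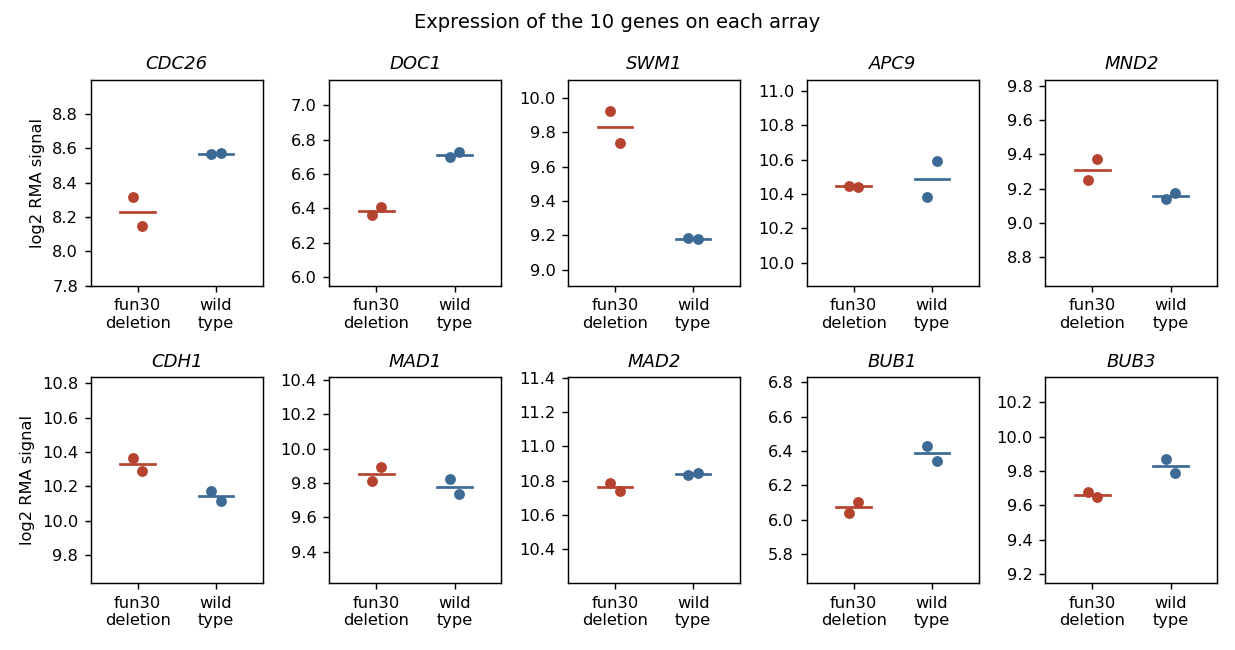
Log2 RMA signal (y axis, the same span of 1.2 in every panel) of the 10 genes on the 2 fun30 deletion arrays and the 2 wild-type arrays, with bars at the means. SWM1 shows the widest gap between genotypes, 0.65 higher in the deletion, and CDC26, DOC1 and BUB1 lie lower in the deletion by 0.32 to 0.34.

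SWM1 lies on chromosome IV, between YAP6 and EXG2, an exo-glucanase gene in RefSeq's gene order. YAP6 rose by 1.26 (adjusted p = 0.00681, limma) and EXG2 rose by 0.92 (adjusted p = 0.0145, limma). SWM1 belonged to a stretch of 34 consecutive measured genes, from ADK1 to EXG2, in which every difference exceeded 0.3, a limit set after the values were seen. That limit ended the stretch at HTA1, the next measured gene before ADK1, which differed by 0.06. Whether raised genes lay beyond HTA1 is not reported here. Of these 34 genes 31 rose, and their differences ran from 0.32 to 1.26 with a median of 0.85. SWM1 was among the smaller differences of the stretch, with 30 genes above it and 3 below. The 10 measured genes before SWM1 had a median difference of 0.80, and the 9 measured genes after EXG2 one of 0.07, so SWM1 was the last but one gene of the raised stretch. The 10 measured genes on either side of each other member had medians from −0.07 to 0.15. The rise of SWM1 cannot be told apart from that of the stretch it lies in.

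**Figure D4:**
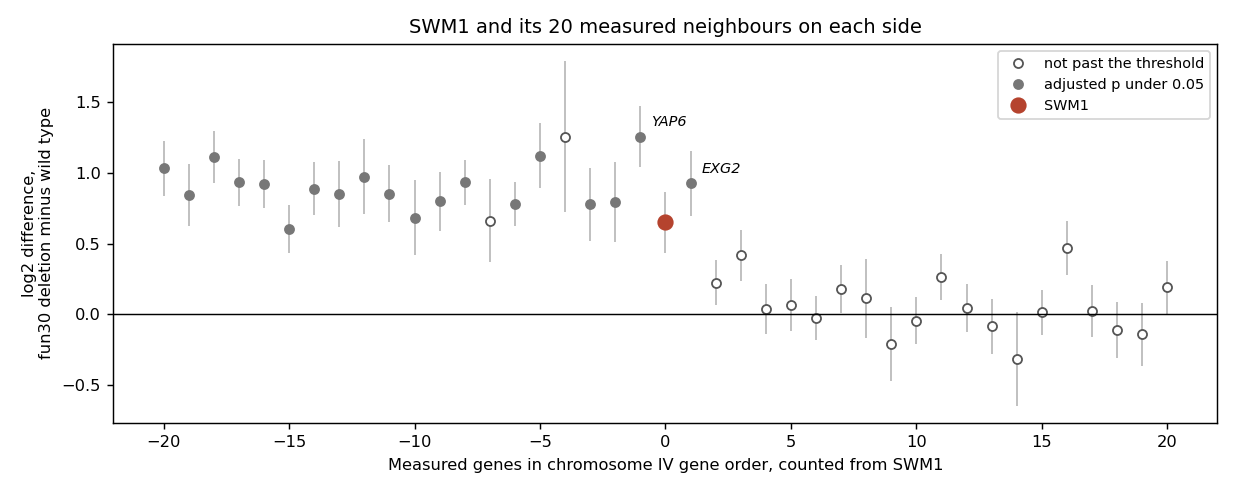
Log2 difference, fun30 deletion minus wild type (y axis, points with 95% intervals), of SWM1 and the 20 measured genes on each side of it in chromosome IV gene order (x axis). The genes before SWM1, and EXG2 just after it, lie between 0.60 and 1.26, and the genes after EXG2 scatter around 0.

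The rest of the pathway was read from 7 lists holding 62 genes, all measured, of which 0 rose and 0 fell in limma. At an unadjusted limma p under 0.05 there were 18, of which 4 were higher and 14 lower, against 22.2% of all probe sets, of which 535 were higher and 687 lower. The essential APC/C subunits split evenly, with 4 of 8 higher and 4 lower in the deletion and a median of 0.06. The cullin subunit gene APC2 differed by 0.29 and APC5 by 0.19. Among activators, the inhibitor and conjugating enzymes (6 genes, median −0.07), ACM1 differed by −0.35 and CDC20 by −0.21. Among the other checkpoint genes (8 genes, median −0.07), SLI15 differed by −0.29 and SGO1, the protector of centromeric cohesion, by −0.18.

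APC/C substrates were lower in the deletion in 13 of 14 genes, where 50.7% of all probe sets had a lower mean, with a median of −0.17. In 10 of the 14 the genotypes did not overlap, with the deletion lower, against 30.0% of all probe sets. The mitotic cyclin genes CLB1 and CLB2 lay farthest down. CLB1 averaged 10.00 ± 0.08 on the deletion arrays and 10.92 ± 0.32 on the wild-type arrays (log2 signal, SD, n = 2 each), a difference of −0.92 ± 0.16 (SE, adjusted p = 0.0587, limma). CLB2 averaged 8.45 ± 0.14 on the deletion arrays and 9.02 ± 0.33 on the wild-type arrays (log2 signal, SD, n = 2 each), a difference of −0.57 ± 0.17 (SE, adjusted p = 0.151, limma). The wild-type arrays themselves differed in these genes, by 0.45 for CLB1 and 0.47 for CLB2 (replicate 1 minus replicate 2). Over the 14 substrates the median of that wild-type difference was 0.08, against 0.01 over all probe sets. The 14 genes were read on the same 4 arrays and are not 14 independent observations. The 5 MATa marker genes were also lower in the deletion, with a median of −0.23 and 4 of them without overlap, and STE3, a MATalpha gene, rose by 0.48 (adjusted p = 0.0343, limma). Their part in the values of the substrates was not tested. When each deletion array was set against each wild-type array, the median of the substrates lay between −0.27 and −0.16 in all 4 cases. These 4 cases reuse the same arrays and are not independent, and the list was chosen with earlier results of these data known. In asynchronous cultures, fewer cells at a stage and less RNA per cell cannot be told apart.

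The cohesin and separase list (6 genes, median −0.12) held MCD1, the cohesin subunit cut by separase, at −0.54, and SMC3 at −0.35. Its wild-type arrays differed by 0.44 in MCD1. The mitotic exit list (13 genes, median −0.02) held the kinase gene DBF20 at −0.36 and SIC1 at 0.28. In the SCF ligase list (8 genes, median −0.04), the other main cell cycle ubiquitin ligase, the F-box genes GRR1 and MET30 differed by 0.13 and −0.13, and 0 genes had an unadjusted limma p under 0.05.

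**Figure D5:**
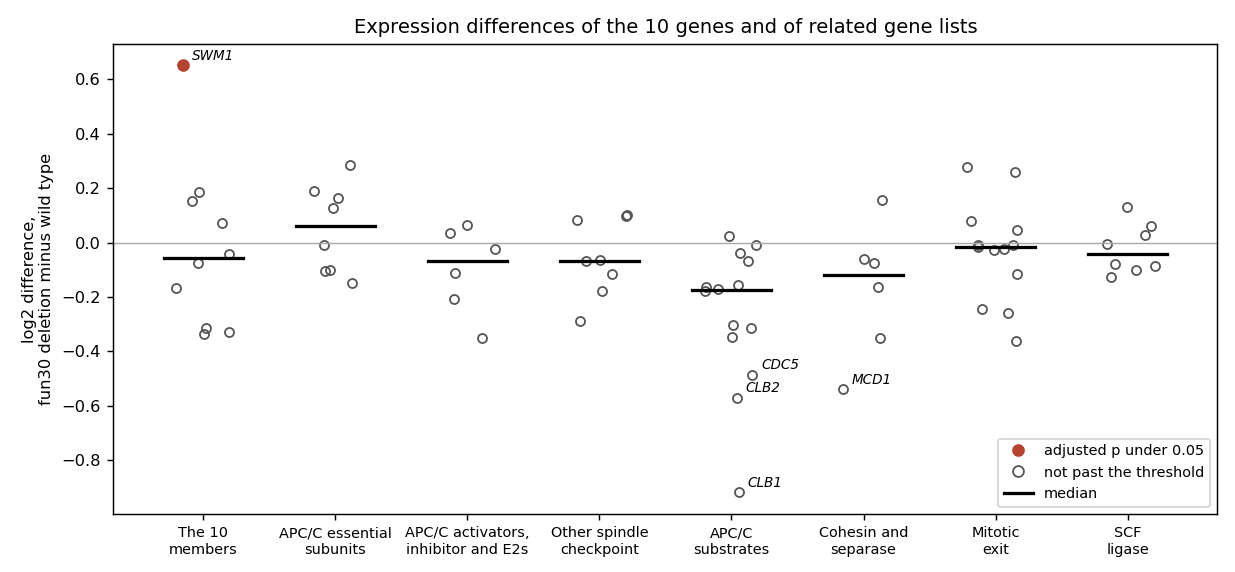
Log2 difference, fun30 deletion minus wild type (y axis), of each of the 10 members and of each gene in 7 related lists (x axis), with medians as bars. SWM1 is the only filled point, past an adjusted p of 0.05, and the APC/C substrates lie mostly below 0, down to −0.92 for CLB1.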

How the data were processed

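The deposited expression table holds a log2 signal for each probe set, computed by the authors with RMA, per the submitters' processing notes. Limma is named there too, without versions. RMA makes array distributions alike, so a shift of the whole transcriptome would not be seen. Array medians ran from 10.59 to 10.61. Of 10928 probe sets, 5498 name 1 gene of the RefSeq table (assembly R64), for 5449 genes, and were fitted with limma 3.58.1 in R 4.3.3 (lmFit and eBayes, genotype alone, 2-sided, 2 residual and 3.23 prior degrees of freedom), with Benjamini-Hochberg adjustment over all of them. The background level is the 95th percentile of mean signals among 1747 probe sets whose annotated gene is not in that table. The arrays name no build, so no coordinates are given.

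For integration the authors deposited a linear ratio of both channels for each feature, whose scaling and direction are not stated. Plasmid DNA carried Cy5 on the ISU1 array and Cy3 on the SOD2 array, per the labels. Both arrays correlated with r = 0.53 over strains, so both were read the same way round. Features 10971 numbers apart were treated as tags of 1 strain, since all 3402 such pairs with names on both sides named the same gene. This gave 4303 strains. The SD of a tag was 0.28 (log2) on both arrays, and its division by the square root of the number of tags gave the error of a strain, which covers tags only. Feature annotation matched RefSeq for all but 3 gene IDs.

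The members and lists were chosen with earlier results of these data known. Named were all members, nearest neighbours by gene order, the genes of a list past the threshold or, where none passed, the 2 largest differences, the strain farthest from the median in lists of at least 3 strains, and 5 nearest strains. RAD54, RAD55 and RAD57 stood in for RAD52, whose strain was not analysed here. Alternatives were the leaving out of each array, a replicate block, a filter on dim probe sets, quantile normalization, an intensity trend, and other centring, scaling and tag choices. Protein features, planned in the design, were not analysed here. Python 3.11.15 served for the rest, and the procedures were tested on simulated data. In simulated expression values, limma at the same threshold recovered 54% of changes of 0.5 (log2) and 80% of changes of 1. Smaller changes were not simulated, so a gene that did not pass may still have changed.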

Additional observations from a re-analysis of the deposited data

Results flagged for a closer look

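The strains lacking MND2, MAD2 and BUB1 lay on opposite sides of the array median with the 2 cassettes, a difference that was not tested because each cassette has 1 array. The ISU1 value minus the SOD2 value was 0.07 for MND2, −0.13 for MAD2 and 0.19 for BUB1. Each was smaller than the SD of a single tag, 0.28. Cassette and dye cannot be told apart in these differences, since the dyes were exchanged between the arrays.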

How the results depend on the processing

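The count of members that rose was 0 to 1 when each array was left out in turn, and that of members that fell was 0. Among the 62 listed cell division genes the count that rose was 0 and the count that fell 0 to 6 in those fits. The highest counts of falls were 6 without wild type replicate 2 (ASE1, CDC5, CLB1, CLB2, DBF20 and MCD1), where 402 of 5498 probe sets were called in all, and 5 without fun30 deletion replicate 1 (ACM1, CLB1, CLB2, MCD1 and SMC3), where 423 were, and CLB1 was the 1 gene that fell without fun30 deletion replicate 2 (174 called in all) and with an intensity trend (172). Without wild type replicate 1, where 0 listed genes fell, 75 were called in all. The labels number the arrays 1 and 2 in both genotypes. The deviations of same-numbered arrays correlated with r = 0.26 over probe sets, and 2 pairs do not settle whether the numbers pair the samples. With the replicate block 3 members fell (BUB1, CDC26 and DOC1, adjusted p = 0.0390, 0.0344 and 0.0259, limma), 2 listed genes rose (APC2 and SIC1) and 9 fell, and calls over all probe sets numbered 794, against 146 without it. From the first tag alone the counts of strains past 2-fold were as reported. From the second tag alone, or over the 6 strains with both tags on both arrays, 0 members were past 2-fold below on both arrays, since CDC26 has no value at that tag on the ISU1 array. The members' SOD2 median was −0.52 from the first tag and −0.06 from the second, and their ISU1 median −0.47 and −0.81. Each was taken over 7 strains, without BUB1 for the first tag and without CDC26 for the second. The sets of strains therefore differ between the tags.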
